A study of Mus musculus with 4 samples.

Results

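The miR-17-92 and miR-106b-25 clusters are paralogous groups of miRNA hairpins, each cut from a single primary transcript. Their 9 guide strands, the strands named as the mature product of each hairpin, were taken by name from the table of 1979 mature miRNAs. The 6 guides of miR-17-92 are miR-17-5p, miR-18a-5p, miR-19a-3p, miR-20a-5p, miR-19b-3p and miR-92a-3p. The 3 guides of miR-106b-25 are miR-106b-5p, miR-93-5p and miR-25-3p. All 9 reached a mean of at least 10 reads per 1000000 counts (RPM) over the libraries and belong to the 251 miRNAs that did.

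Small RNA was sequenced from resting bone marrow–derived macrophages (BMDMs) in 4 libraries. There were 2 wild-type libraries (WT A and WT B), 1 library from the genotype labelled miR-146 Knock-out (KO) and 1 from the genotype labelled a non-seed swap of miR-146 (3′F). In 3′F the 3′ part of the miR-146 duplex is exchanged between its strands while the seed is kept. The KO and 3′F alleles were each made by homologous recombination in V6.5 embryonic stem cells, with the selection cassette removed by Cre, and per the study's methods the mice were backcrossed to C57BL6/J. The labels give a 129/B6 mix for all genotypes. Marrow came from mice of 6 to 7 months, 3 per genotype, and whether their cells were pooled in a library is not stated in the labels. Cells were plated at 85000 cells per cm2, grown in M-CSF (10 ng/ml) over 8 to 9 days and kept for 16 h in fresh medium without LPS. Both alleles alter the miR-146a locus and neither was made at the clusters described here. A and B mark separate cultures, and with 1 library each for KO and 3′F no p-value was computed.

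A miRNA finds its targets mainly through bases 2 to 8 from its 5′ end, the seed, so members of the clusters with the same seed are expected to recognize largely the same sites whichever transcript they come from. miR-17-92 is known as an oncogenic cluster that MYC and E2F factors activate in proliferating cells, and it is required for normal B cell development. Among its well-known targets is the proapoptotic gene Bcl2l11. miR-106b-25 is transcribed with Mcm7, a gene of the DNA replication helicase, and a further paralog cluster, miR-106a-363, lies on the X chromosome.

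The mature sequences are shown by seed because the sums below follow this grouping. They are from RefSeq (GRCm38.p6), which matched 9 of 9 members, and are written 5′ to 3′ with the seed in capitals. The largest group, with the seed AAAGUGC, draws 2 members from each cluster.
mmu-miR-17-5p: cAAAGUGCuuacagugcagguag
mmu-miR-20a-5p: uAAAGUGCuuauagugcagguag
mmu-miR-106b-5p: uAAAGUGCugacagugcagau
mmu-miR-93-5p: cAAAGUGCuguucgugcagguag
Only miR-18a-5p carries AAGGUGC.
mmu-miR-18a-5p: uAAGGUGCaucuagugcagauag
The miR-19 pair carries GUGCAAA.
mmu-miR-19a-3p: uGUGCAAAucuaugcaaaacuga
mmu-miR-19b-3p: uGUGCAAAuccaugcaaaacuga
The last seed, AUUGCAC, joins 1 member of each cluster.
mmu-miR-92a-3p: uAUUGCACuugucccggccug
mmu-miR-25-3p: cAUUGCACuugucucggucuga

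Positions are counted from 1 at the 5′ end. Relative to miR-17-5p, miR-20a-5p carried C1U and C12U, both outside the seed. miR-93-5p differed by U10G, A11U, C12U and A13C, and miR-106b-5p by C1U, U10G and G20A over the 21 bases compared. In miR-18a-5p the substitution A4G lies within the seed, beside C1U, U9A, A11C, C12U and G20A. The miR-19 strands differed only by U11C, and miR-25-3p differed from miR-92a-3p by U1C, C14U and C18U.

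In the mouse genome (GRCm38, GENCODE vM21) the miR-17-92 hairpins span 836 bp of the plus strand of chromosome 14, from 115043671 to 115044506. All 6 lie in exon 2 of 2 of transcript Mir17hg-201 of the lincRNA gene Mir17hg (ENSMUSG00000089726.2), in the order miR-17, miR-18a, miR-19a, miR-20a, miR-19b-1 and miR-92a-1. The miR-106b-25 hairpins span 498 bp of the minus strand of chromosome 5, from 138165321 to 138165818. They lie in intron 13 of transcript Mcm7-201 of the protein-coding gene Mcm7 (ENSMUSG00000029730.16), which has 15 exons and is on the same strand, in the order miR-106b, miR-93 and miR-25.

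Library totals ranged from 11410940 to 19087640 counts, so that 3 counts corresponded to 0.157 to 0.263 RPM. The wild-type miR-146a-5p was at 6253 RPM in WT A and 5485 RPM in WT B, against 13.4 RPM in KO and 6.64 RPM in 3′F. Macrophage and myeloid marker miRNAs summed to between 2894 and 3713 RPM in each library. Lymphoid markers summed to between 246 and 305 RPM, nearly all of it from miR-181a-5p, at 244 to 303 RPM. It was the only 1 of the 3 listed that was expressed, and miR-150-5p was at 1.54 to 2.93 RPM. The remaining entry, miR-205-5p, was at 0 to 0.18 RPM. Its place in a lymphoid list was not checked, so its low level is not read as a lack of lymphoid cells. Stromal markers were low, with a sum of 8.1 and 8.8 RPM in the WT libraries, 5.73 RPM in KO and 5.43 RPM in 3′F. Of these, miR-143-3p was at 4.74, 4.91, 2.10 and 2.22 RPM in WT A, WT B, KO and 3′F. In contrast, miR-199a-3p lay between the WT libraries in both mutants, at 3.18, 3.71, 3.63 and 3.21 RPM in the same order. Erythroid markers summed to 170 RPM in WT A and 159 RPM in WT B and to 70.4 RPM in KO and 80.3 RPM in 3′F, and the 3 of 4 that were expressed lay below both WT libraries in both mutants.

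Together the 9 guides made up 1.27% of the counts of WT A and 1.68% of those of WT B, against 1.33% for KO and 1.19% for 3′F. Their levels ranged over more than 2 orders of magnitude, although the members of a cluster are cut from the same transcript. A read stands for 1 strand of 21 to 23 bases, so RPM needs no correction for length. How well a small RNA is ligated into a library depends on its sequence, which bears on any comparison of levels between different miRNAs. Values below are of the precursor line with the highest summed count. WT values are the mean and SD of 2 libraries.

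The miR-25-3p guide, a member of the AUUGCAC group from miR-106b-25, was the highest. It was at 5075 RPM in WT A, 6849 RPM in WT B, 5928 RPM in KO and 5143 RPM in 3′F, with a WT mean of 5962 ± 1255 RPM (SD, n = 2). It ranked between 17th and 22nd of all miRNAs in every library. The KO and 3′F values both fell between those of the WT libraries, which differed by 0.43 on the log2 scale.

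Its seed partner miR-92a-3p, the last hairpin of miR-17-92, was at 3874 RPM in WT A, 5697 RPM in WT B, 4122 RPM in KO and 3901 RPM in 3′F. The WT libraries were farther apart for miR-92a-3p than for any other member, at 0.56 on the log2 scale and 4785 ± 1289 RPM (SD, n = 2), and both mutants again lay between them. The WT ranges of miR-25-3p and miR-92a-3p overlapped. Within each library, however, miR-25-3p exceeded miR-92a-3p by 1.20- to 1.44-fold.

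Of the AAAGUGC group, miR-93-5p of miR-106b-25 was the highest. It was at 1363 RPM in WT A, 1607 RPM in WT B, 1211 RPM in KO and 1087 RPM in 3′F. Its KO and 3′F levels were 81.5% and 73.2% of the WT mean of 1485 ± 173 RPM (SD, n = 2), and both were below the lower WT library.

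The next was miR-20a-5p of miR-17-92, at 1227 RPM in WT A, 1382 RPM in WT B, 1143 RPM in KO and 929 RPM in 3′F. The WT ranges of miR-20a-5p and miR-93-5p overlapped. The KO library lay just below WT A, at 87.7% of the WT mean, and 3′F lay farther below, at 71.2%.

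Its close relative miR-17-5p, the first hairpin of miR-17-92, was at 888 RPM in WT A, 1030.2 RPM in WT B, 714 RPM in KO and 640.4 RPM in 3′F. These were 74.4% and 66.8% of the WT mean of 959 ± 101 RPM (SD, n = 2) in KO and 3′F. Neither mutant overlapped the WT libraries, which did not overlap those of miR-20a-5p.

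The remaining AAAGUGC member, miR-106b-5p, was about an order of magnitude lower, at 106 RPM in WT A, 85.7 RPM in WT B, 83.5 RPM in KO and 90.5 RPM in 3′F. It was the only guide other than miR-18a-5p that was lower in WT B than in WT A. The KO library was below both WT libraries by less than the width of its counting interval (79.5 to 87.7 RPM, 95% Wilson), and 3′F lay between them.

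Of the miR-19 pair, known as the members that carry much of the oncogenic activity of the cluster, miR-19b-3p was at 62.9 RPM in WT A, 63.3 RPM in WT B, 52.0 RPM in KO and 54.5 RPM in 3′F. The WT libraries were closest for this miRNA, at 63.1 ± 0.297 RPM (SD, n = 2), and KO and 3′F were at 82.4% and 86.4% of their mean. The other of the pair, miR-19a-3p, was at 32.1 RPM in WT A, 36.1 RPM in WT B, 25.8 RPM in KO and 24.9 RPM in 3′F. Both mutants were below both WT libraries for each of the pair.

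The only AAGGUGC member, miR-18a-5p, was at 34.2 RPM in WT A, 28.3 RPM in WT B, 21.2 RPM in KO and 19.5 RPM in 3′F. It stood at the smallest share of the WT mean in both mutants, 67.8% in KO and 62.4% in 3′F. Its 316 to 584.5 counts per library were among the fewest of the members. The WT ranges of miR-18a-5p and miR-19a-3p overlapped, and these were the only members whose order changed between libraries, since 35 of the 36 pairs of members had the same order in all 4.

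**Figure D1:**
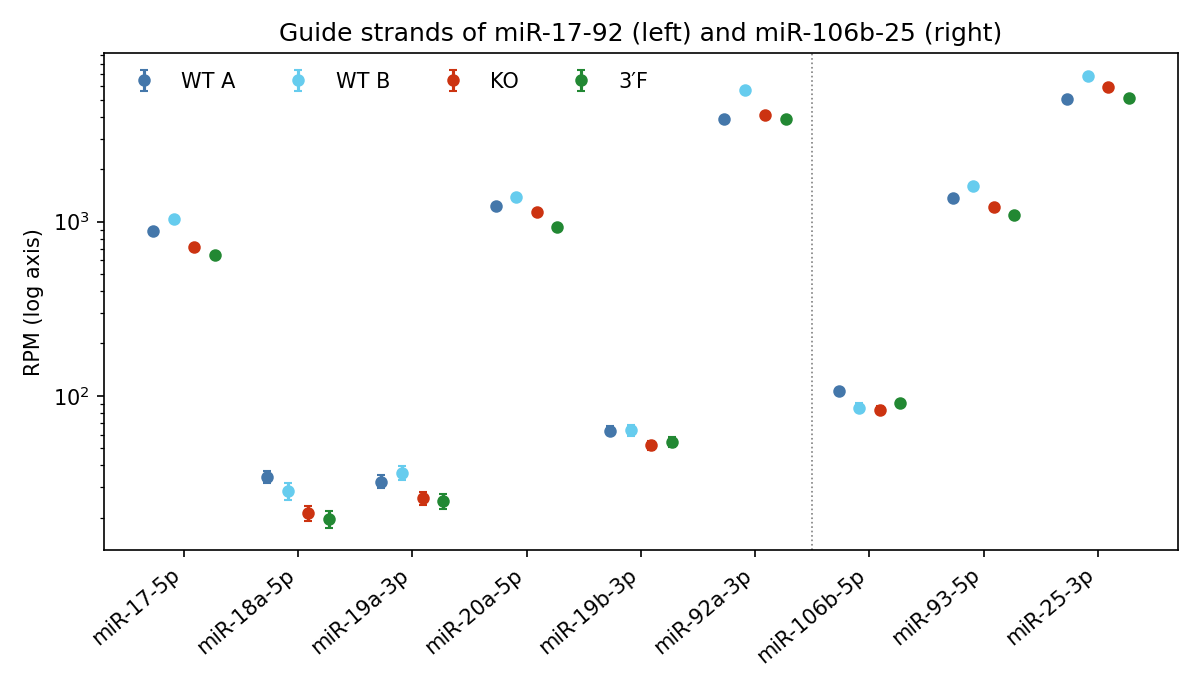
RPM on a log axis of each guide in WT A, WT B, KO and 3′F, with 95% Wilson intervals of the counts, the miR-17-92 guides left and the miR-106b-25 guides right of the dotted line. Levels run from 19.5 RPM for miR-18a-5p in 3′F to 6849 RPM for miR-25-3p in WT B.

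Set against the WT mean on the log2(RPM + 1) scale, 0 of 9 guides differed by 2-fold or more from each WT library in KO, where 3.59% of the 251 miRNAs did and 1.59% were lower by as much. The same was true in 3′F, where 0.797% of the 251 miRNAs were called, all of them lower. The differences of KO from the WT mean ran from -0.53 for miR-18a-5p to 0.01 for miR-25-3p, and those of 3′F from -0.65 for miR-18a-5p to -0.08 for miR-106b-5p. The median absolute difference between WT B and WT A was 0.24 for the members, and the median difference of the members from the WT mean was -0.27 in KO and -0.44 in 3′F. Over the 251 miRNAs these medians were 0.01 in KO and -0.08 in 3′F.

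Counted by side, a measure chosen after the values were seen, 7 of 9 guides were below both WT libraries in KO and 6 of 9 in 3′F. Of all 251 miRNAs, 39.4% were below both in KO and 44.2% in 3′F. None of the 9 guides was above both WT libraries in either mutant, where 37.8% of all 251 miRNAs were in KO and 22.7% in 3′F. miR-17-5p, miR-18a-5p, miR-19a-3p, miR-20a-5p, miR-19b-3p and miR-93-5p were below in both, 6 of 9 members against 69 of 251 miRNAs (27.5%). The mutants share the WT libraries and the guides of a cluster are cut from the same transcript, so these counts are not independent. Among the guides below in KO, miR-106b-5p was below by less than the width of its counting interval. The summed erythroid and stromal markers were lower in the same libraries, though miR-199a-3p of the stromal list was not. Their part in these differences was not tested. Whether fewer cells that express a guide or less of it per cell gave a lower level cannot be told apart in bulk RNA.

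**Figure D2:**
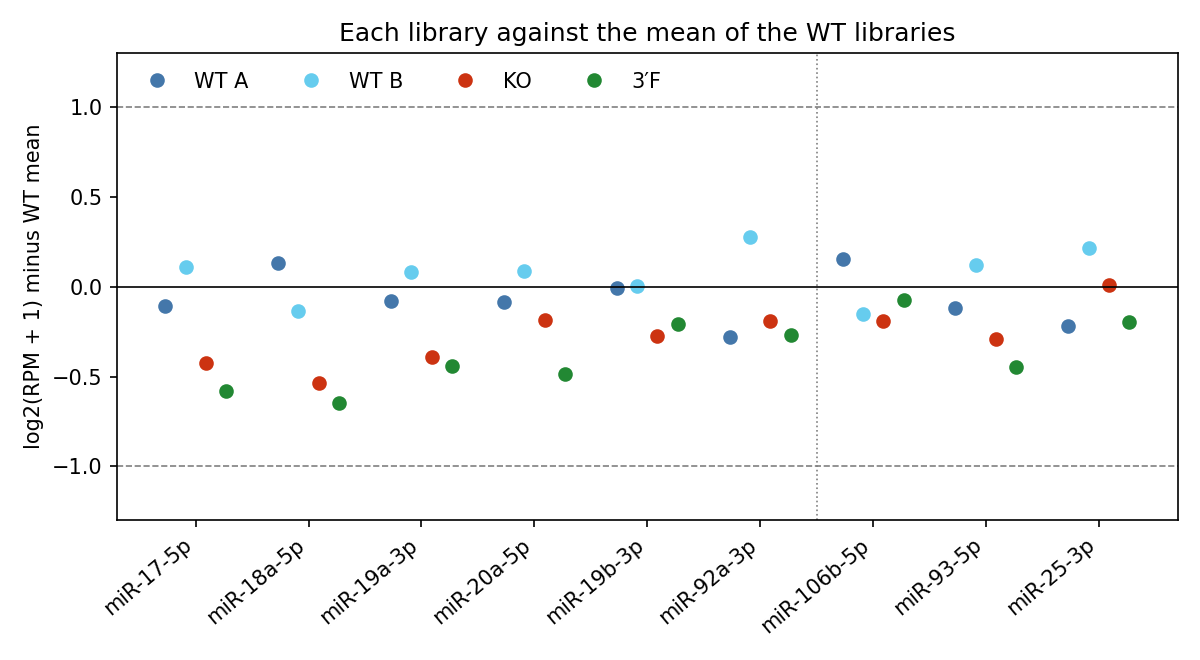
Difference of log2(RPM + 1) in each library from the mean of both WT libraries for each guide, with dashed lines at 2-fold. All points lie within the dashed lines, and KO and 3′F lie below both WT points for 6 guides, among them miR-17-5p at -0.42 in KO and -0.58 in 3′F.

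Summed over seeds, the AAAGUGC group was at 3584 RPM in WT A, 4105 RPM in WT B, 3151 RPM in KO and 2746 RPM in 3′F. Both mutants were below both WT libraries, by -0.28 and -0.48 from the WT mean on the log2 scale, and the WT libraries differed by 0.20. The members from miR-17-92, miR-17-5p and miR-20a-5p, gave 59.0% and 58.8% of the group in the WT libraries, 58.9% for KO and 57.1% for 3′F. The share of each cluster in this seed thus moved by less than 2 percentage points across the libraries.

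The AUUGCAC group was the most abundant, at 8949 RPM in WT A, 12546 RPM in WT B, 10050.4 RPM in KO and 9044 RPM in 3′F. Both mutants lay between the WT libraries, which differed by 0.49 on the log2 scale. Here miR-25-3p gave the larger part in every library, and miR-92a-3p 43.3%, 45.4%, 41.0% and 43.1% in WT A, WT B, KO and 3′F. The GUGCAAA group was at 95.01 RPM in WT A, 99.4 RPM in WT B, 77.8 RPM in KO and 79.4 RPM in 3′F, with both mutants below both WT libraries. With all precursor lines added it was at 156, 161, 129 and 133 RPM in the same order, and both mutants were again below.

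Summed over each transcript, the miR-17-92 guides were at 6118 RPM in WT A, 8237 RPM in WT B, 6078 RPM in KO and 5569.6 RPM in 3′F. The KO sum was below that of WT A by less than 1%, and it lay between the WT libraries when all precursor lines were added. The miR-106b-25 guides were at 6544 RPM in WT A, 8542 RPM in WT B, 7222 RPM in KO and 6320.0 RPM in 3′F. KO lay between the WT libraries and 3′F below both. The differences from the WT mean were -0.22 in KO and -0.35 in 3′F for miR-17-92, and -0.05 and -0.24 for miR-106b-25. The WT libraries differed from each other by 0.43 and 0.38, a distance between libraries and not from their mean. Against WT A alone the mutants differed by -0.01 and -0.14 for miR-17-92 and by 0.14 and -0.05 for miR-106b-25. Against WT B alone they differed by -0.44 and -0.56, and by -0.24 and -0.43. The choice of WT library thus set the size of these differences and, for miR-106b-25 in KO, their direction. The ratio of miR-106b-25 to miR-17-92 was 1.07 and 1.04 in the WT libraries, against 1.19 for KO and 1.13 for 3′F. With all precursor lines added it was 1.02 for WT A, 0.987 for WT B, 1.125 for KO and 1.07 for 3′F. Which cluster was higher in WT B thus depended on the lines used.

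Within miR-17-92, miR-92a-3p gave 63.3% of the guides of WT A, 69.2% of WT B, 67.8% of KO and 70.0% of 3′F. miR-20a-5p gave 16.7% to 20.0% and miR-17-5p 11.5% to 14.5%. miR-18a-5p, miR-19a-3p and miR-19b-3p gave at most 1.03% each. With all precursor lines added, miR-19b-3p gave 1.45% to 1.94%. Within miR-106b-25, miR-25-3p gave 77.6% of WT A, 80.2% of WT B, 82.1% of KO and 81.4% of 3′F, miR-93-5p 16.8% to 20.8% and miR-106b-5p at most 1.62%. In each cluster the hairpin at the 3′ end of the transcript thus gave the largest share in all 4 libraries.

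**Figure D3:**
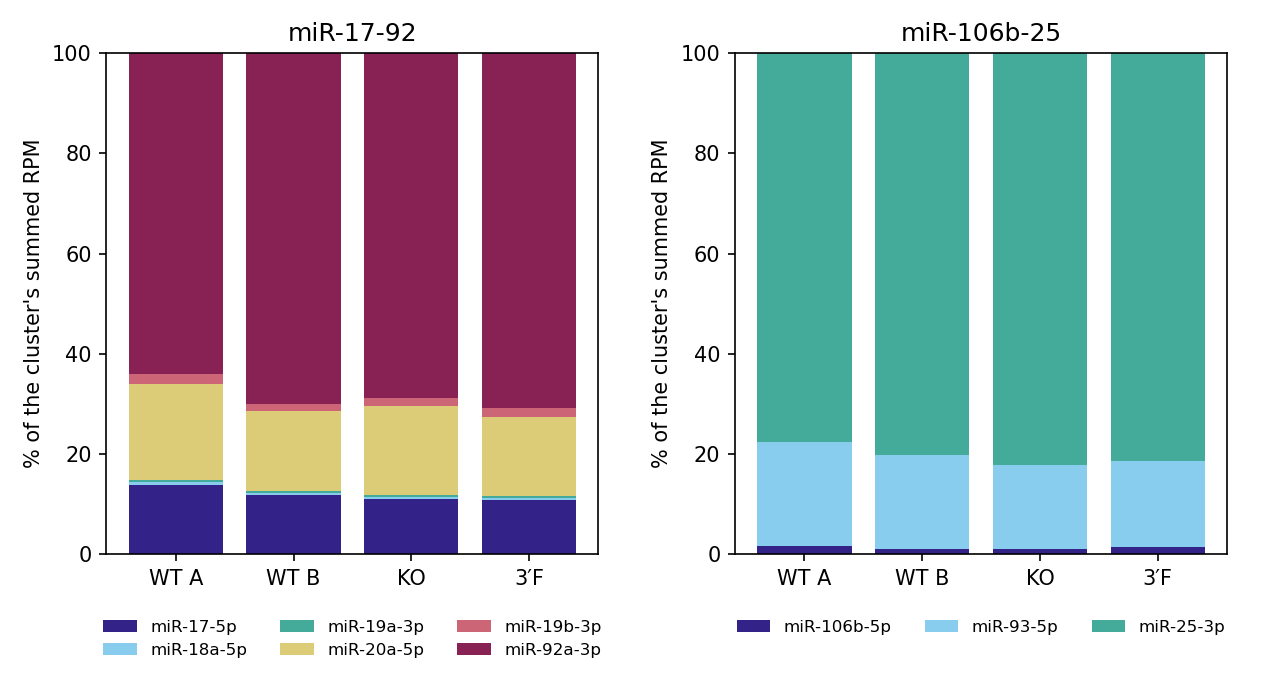
Share of each guide in the summed RPM of its cluster, as stacked bars for WT A, WT B, KO and 3′F, with all precursor lines of miR-19b-3p and miR-92a-3p added. With lines added, miR-92a-3p gives 64.0% to 70.7% of miR-17-92, and miR-25-3p gives 77.6% to 82.1% of miR-106b-25.

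Ratios between guides of the same library do not depend on the library total. These pairs were chosen after the values were seen, and the intervals are 95% counting intervals. The ratio of miR-17-5p to miR-20a-5p was 0.724 (0.709 to 0.739) for WT A and 0.745 (0.728 to 0.763) for WT B, against 0.624 (0.611 to 0.638) for KO and 0.689 (0.672 to 0.707) for 3′F. Both mutants were below both WT libraries, and by more than the counting intervals. The ratio of miR-25-3p to miR-93-5p was 3.72 for WT A, 4.26 for WT B, 4.90 for KO and 4.73 for 3′F, and that of miR-93-5p to miR-17-5p was 1.53, 1.56, 1.70 and 1.70 in the same order. Both were higher in the mutants than in either WT library. Not all pairs separated in this way. The ratio of miR-93-5p to miR-20a-5p was 1.11 and 1.16 in the WT libraries, 1.06 for KO and 1.17 for 3′F, on opposite sides of WT, and that of miR-25-3p to miR-106b-5p lay between the WT libraries in both mutants. Of all 36 pairs of guides, 13 had both mutants outside the WT libraries on the same side, 3 on opposite sides, 13 had 1 mutant outside and 7 neither. The pairs share the same 9 guides and are not independent. The same count over pairs of all expressed miRNAs was not made, so these numbers do not show that the mutants separate from WT. The ratio of miR-92a-3p to miR-17-5p was 4.36 for WT A, 5.53 for WT B, 5.78 for KO and 6.09 for 3′F. For this ratio the step between the WT libraries was larger than that from WT B to either mutant. Cultures vary beyond counting error, and with 1 library per mutant that variation is unknown for KO and 3′F.

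The mature strands of miR-92a and miR-19b are each encoded in miR-17-92 and again in miR-106a-363 on the X chromosome, and the table holds a line for each precursor. The 3′ ends of these strands in their hairpins are shown because the first base that tells the copies apart, in capitals, lies just beyond the mature strand, at position 22 for miR-92a-3p and 24 for miR-19b-3p (RefSeq, GRCm38.p6).
Mir92-1: uauugcacuugucccggccugUuga
Mir92-2: uauugcacuugucccggccugAgga
Mir19b-1: ugugcaaauccaugcaaaacugaCugu
Mir19b-2: ugugcaaauccaugcaaaacugaUugu

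For miR-92a-3p the line of the chromosome 14 copy held 94.4% of the counts of both lines for WT A, 94.1% for WT B, 93.4% for KO and 93.8% for 3′F. In WT A this was 66146 counts against 3897 on the line of the X copy. For miR-19b-3p the lines were nearly equal, with the X copy slightly higher at 50.4% to 50.6%, so the level given above for miR-19b-3p is that of the X line. The 95% Wilson intervals of these miR-19b shares included 50% in every library.

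The counts are fractional in a way that bears on these lines. Of the values above 0, 34.0% were a whole number plus 0.5 for miRNAs with 2 lines, against 5.90% for miRNAs with 1. From the values, then, reads that fit both precursors appear to be divided equally, and the level of the mature strand is the sum of its lines. That sum was 124, 125, 103 and 108 RPM for miR-19b-3p in WT A, WT B, KO and 3′F, which places it above miR-106b-5p in each library. For miR-92a-3p it was 4102, 6053, 4413 and 4161 RPM. Under such a division the difference between lines is the net of the reads given to a single line, those of the higher line minus those of the lower. It was 86.8% to 88.9% of the sum for miR-92a-3p and 0.828% to 1.15% for miR-19b-3p, and a small net value does not say how many reads were given to a single line.

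**Figure D4:**
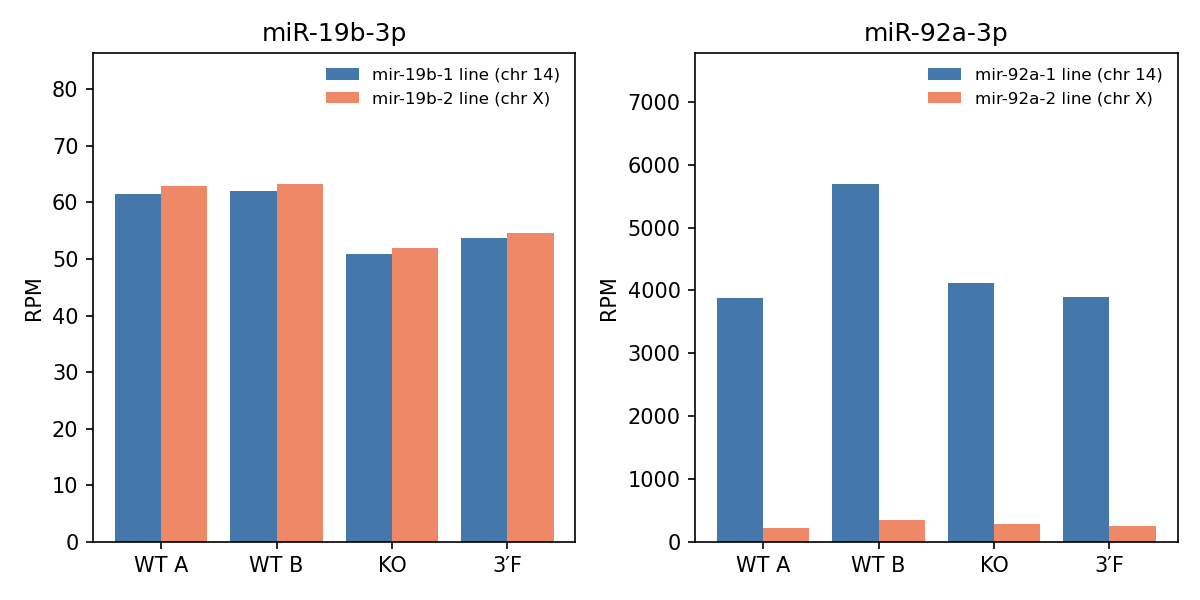
RPM of the chromosome 14 line and the X line of miR-19b-3p (left) and miR-92a-3p (right) in each library. The miR-19b lines are nearly level, between 50.9 and 63.3 RPM, while the X line of miR-92a stays between 228 and 357 RPM.

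The other guides of miR-106a-363, which share seeds with the members, were low in all libraries. miR-106a-5p differs from miR-17-5p by U10A and was at 2.93 RPM in WT A, 3.52 RPM in WT B, 2.23 RPM in KO and 2.48 RPM in 3′F.
mmu-miR-106a-5p: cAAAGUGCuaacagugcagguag
These values rest on at most 50 counts per library. miR-20b-5p was at 1.28 to 2.40 RPM and miR-363-3p at 0.470 to 1.11 RPM, and miR-18b-5p had at most 0.5 counts in any library. Of the arms that only the X copies can give, miR-19b-2-5p had 0 counts in each library, which allows up to 0.263 RPM, and miR-92a-2-5p had 1 count, in KO.

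The opposite arm of each hairpin, the passenger, is a readout that did not choose the members. For 7 of the 9 hairpins the guide made up at least 97.4% of the counts of both arms in every library. Of the other two, mir-106b was the hairpin whose opposite arm was the more abundant. Its 3p strand, with the seed CGCACUG that no member has, is shown for that reason.
mmu-miR-106b-3p: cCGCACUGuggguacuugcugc

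miR-106b-3p was at 778 RPM in WT A, 859.7 RPM in WT B, 852 RPM in KO and 818 RPM in 3′F. The counts of miR-106b-5p were 12.0% (11.5% to 12.6%), 9.07% (8.54% to 9.62%), 8.92% (8.51% to 9.34%) and 9.96% of those of both arms in the same order. The 3p strand thus exceeded the 5p strand by 7.32- to 10.2-fold. Both mutants lay between the WT libraries for miR-106b-3p. Both arms of this hairpin together were at 884 to 945 RPM. The sums and shares given above for miR-106b-25 count only its 5p strand and leave out the 3p strand.

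For mir-18a the guide made up 75.8% (72.6% to 78.7%) of both arms for WT A and 60.5% (56.3% to 64.5%) for WT B, against 58.1% for KO and 67.2% for 3′F. The WT libraries differed beyond their counting intervals and spanned the 3′F value, while KO was lowest. Its passenger miR-18a-3p was at 10.95 RPM in WT A, 18.5 RPM in WT B, 15.3 RPM in KO and 9.51 RPM in 3′F.

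Of the 9 opposite arms, 7 were below both WT libraries in KO and 8 in 3′F, against 39.4% and 44.2% of the 251 expressed miRNAs. The arms come from the same transcripts as the guides, so they are not independent of them or of each other. None was 2-fold or more from both, against 3.59% and 0.797%. On the log2(RPM + 1) scale an arm below 1 RPM in a WT library could not be called lower, even at 0 counts. This held for miR-19a-5p, miR-19b-1-5p and miR-20a-3p (0.88 RPM in WT B). The 251 miRNAs had a mean of at least 10 RPM, which these arms did not reach, so the shares called are not like for like. miR-19a-5p had at most 1 count in a library and miR-19b-1-5p at most 9. Of the 7 arms with at least 10 counts in each library, 5 were below both WT libraries in KO and 6 in 3′F, to be set beside the same 39.4% and 44.2%. Of these, miR-25-5p was at 20.3 RPM in WT A, 22.9 RPM in WT B, 18.9 RPM in KO and 14.6 RPM in 3′F. The guide of the same hairpin, miR-25-3p, lay between the WT libraries in both mutants.

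**Figure D5:**
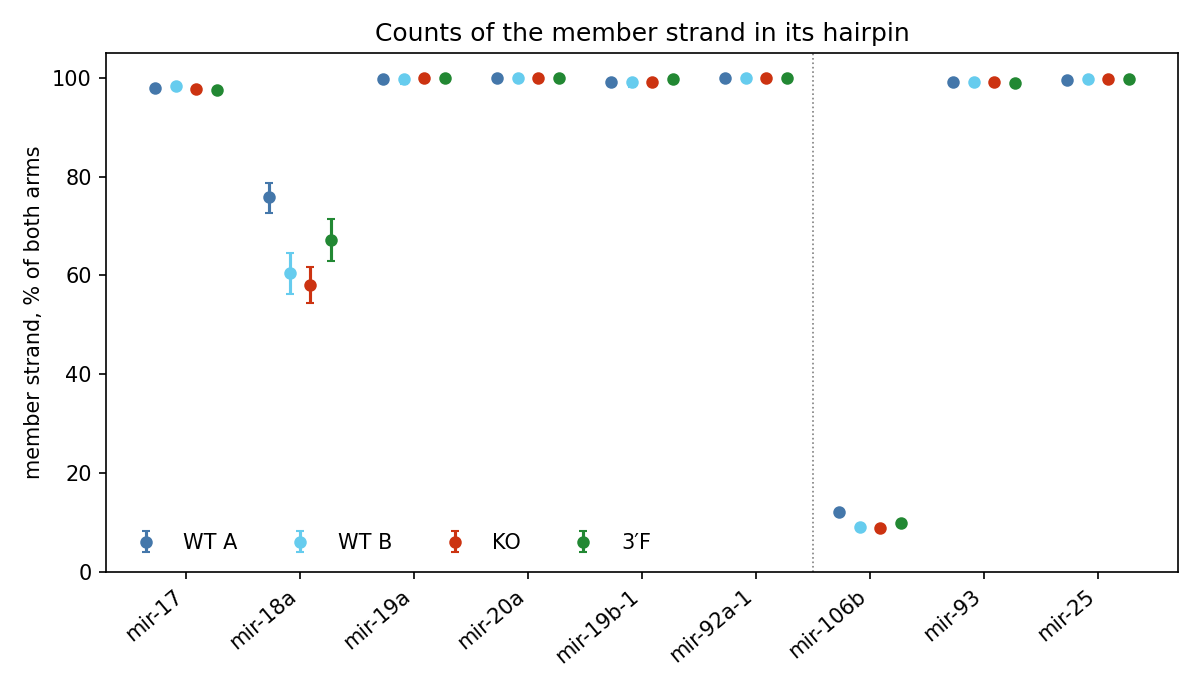
Percent of the counts of both arms of each hairpin that came from the guide, in each library with 95% Wilson intervals. 7 hairpins lie at 97.4% or above, mir-18a between 58.1% and 75.8% and mir-106b between 8.92% and 12.0%.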

How the data were processed

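Small RNA was extracted from resting BMDMs with Trizol, made into libraries with the NEBNext small RNA kit and trimmed with cutadapt 1.8.3 according to the submitters' processing notes. The aligner, counter, genome build and miRNA release are not given in the sources used here. The deposited values are estimated counts by the authors, in part fractional, on 2129 lines, 1 for each mature miRNA and precursor, of 1979 mature miRNAs. The authors also deposited RPM values, each count per 1000000 counts of all lines of its library.

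From these, each miRNA was read from 1 line, the one whose count summed over the libraries was highest. Ratios are differences of log2(RPM + 1) from the mean of both WT libraries, a scale that compresses changes of low miRNAs. Expressed miRNAs had a mean of 10 RPM or more, and a call needed 2-fold or more from each WT library, in 1 direction. Shares have 95% Wilson intervals. Reads are not independent molecules, so intervals and floors (3 counts) cover counting error only. Fractional counts were used as deposited. No test was run, and the functions were checked on simulated data.

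The members and lists were chosen with earlier results of these data known. The miRNAs named are the members, the opposite arm of each hairpin, the guides of miR-106a-363, and for each cluster sum the 3 expressed miRNAs outside these clusters nearest in pattern. miR-106b-3p falls under this rule, while miR-19b-2-5p, miR-92a-2-5p, miR-146a-5p and single list members fall outside it and were picked once their values were known. Lists of cell type markers and of miRNAs that MYC lowers come from general knowledge and were not checked against a source. Alternatives were other scalings, pseudocounts of 0.1 and 10, each WT library left out, all lines summed, minimums of 1 and 100 RPM and thresholds of 1.5-fold and 3-fold. edgeR 4.0.16 (TMM) and DESeq2 1.42.0 (size factors) on R 4.3.3 gave scalings only. Values were computed in Python 3.11.15 (pandas 2.3.3, numpy 2.4.6, scipy 1.17.1) and drawn with matplotlib 3.10.9.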

Additional observations from a re-analysis of the deposited data

How the results depend on the processing

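No paired analysis was possible because each mutant is a single library with the identifier A, the only identifier shared with WT. Of the 9 guides, 0 was called in KO or 3′F under every alternative, 1.5-fold included. The number of the 251 expressed miRNAs called, 9 in KO and 2 in 3′F, became 27 and 6 at 1.5-fold and 4 and 1 at 3-fold. With a pseudocount of 10 it was 1 in 3′F. At another minimum or total the set of expressed miRNAs also changed, so the counts there are not out of 251. They were 17 in KO at a minimum of 1 RPM, 3 and 1 in KO and 3′F at 100 RPM and 14 in KO without miR-21a-5p in the total. Against a single WT library the number called of the 251 was 13 to 15 in KO and 2 to 5 in 3′F. The median ratio of the guides in KO, -0.27, was -0.40 to -0.27 against a single WT library. The GUGCAAA sum in 3′F, -0.29, was -0.22 with DESeq2 size factors and -0.21 with TMM, and in KO, -0.32, it was -0.38 without miR-21a-5p in the total. Guides below WT numbered 6 to 9 in KO and 6 to 8 in 3′F over the scalings, summed lines and single WT libraries. The share of expressed miRNAs below WT over the same settings ran from 34.4% to 55.8% in KO and from 30.9% to 68.5% in 3′F, in both highest without WT A. Of 162 guide ratios under the alternatives, 152 were negative. These recompute the ratios of the same 9 guides from the same libraries, so they are not separate observations. The same count over all expressed miRNAs was not made. The sign turned for the miR-106b-25 sum in KO (0.14) and the AUUGCAC sum in KO (0.17) and 3′F (0.02) without WT B, for miR-25-3p and miR-92a-3p in both mutants and for miR-106b-5p in 3′F with one of the WT libraries left out, and for miR-25-3p in KO also with TMM or without miR-21a-5p in the total. Beyond the number of WT libraries or the threshold itself, the cause was not tested. Guides had 316 to 113152 counts per library. The spread between cultures, which only WT shows, limits all of these comparisons. Counting error also limits those of the lower guides, such as miR-106b-5p in KO.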

Other observations

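MYC is known to activate both clusters and to lower a set of other miRNAs. Of 19 such miRNAs, let-7, miR-15, miR-26, miR-29 and miR-30 members among them, 16 were expressed and 0 differed by 2-fold or more from each WT library in either mutant. Their median difference from the WT mean was 0.07 in KO, where 5 were below and 7 above both WT libraries, and -0.09 in 3′F, where 7 were below and 3 above. Over all 251 expressed miRNAs the medians were 0.01 and -0.08, with 39.4% below and 37.8% above in KO and 44.2% below and 22.7% above in 3′F. At the ends of the list by its difference in KO, let-7c-5p (0.51) was at 3297 RPM in WT A, 3819 RPM in WT B, 5048 RPM in KO and 3649 RPM in 3′F, and miR-29b-3p (-0.48) was at 40.1, 31.7, 25.4 and 24.6 RPM in the same order.

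Among 237 expressed miRNAs outside the 3 paralog clusters, those nearest to the miR-17-92 sum over the 4 libraries, by the Euclidean distance between centred log2(RPM + 1) values, were miR-330-3p (0.0459), miR-1191a (0.0796) and miR-1198-5p (0.0998), against a median distance of 0.491. miR-330-3p was at 57.2 RPM in WT A, 74.1 RPM in WT B, 56.4 RPM in KO and 51.4 RPM in 3′F. Nearest to the miR-106b-25 sum were miR-361-5p (0.0888), miR-320-3p (0.0920) and miR-700-3p (0.0948), against a median of 0.425. All 6 were highest in WT B, as both cluster sums were, which follows from choosing them by likeness to those sums. All values of a library also share its total.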
